A study of Mus musculus with 6 samples.

Results

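The LAR-type receptor tyrosine phosphatases are the 3 genes Ptprd, Ptprf and Ptprs, and the data described here are the NOVA1 and NOVA2 CLIP clusters that overlapped the annotated span of one of them by at least 1 nt on the transcribed strand. These were 94 of 9988 NOVA1 clusters (0.941%) and 522 of 36591 NOVA2 clusters (1.43%). The genes were chosen by name, with no measured value in the rule, though earlier results of these data were known at the time. Ptprd (ENSMUSG00000028399.10) lies on chr4:75587142-77857865 and spans 2271 kb. Ptprf (ENSMUSG00000033295.7) lies on chr4:117880818-117964010 and spans 83.19 kb. Ptprs (ENSMUSG00000013236.9) lies on chr17:56551851-56615906 and spans 64.06 kb. Positions are in mouse build mm9 and count from 1, the annotation is GENCODE vM1, and all 3 genes are transcribed from the minus strand.

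HITS-CLIP crosslinks a protein to the RNA it touches with ultraviolet light, recovers the complexes with an antibody and sequences the attached RNA. It had been applied to NOVA1 and to NOVA2 in cortex of wild-type mice of strain CD1 at embryonic day 18.5, with 3 libraries for each protein and no untreated or mutant group. Each protein was deposited as 1 list of clusters with a count of at least 10 tags (unique reads) each, pooled over the libraries. The study calls the measure behind its threshold peak height, so the count may be a depth, and the sums of tags below would then be sums of depths. No value per library could be computed, so no difference below can be set against the spread between replicates, and no p-value is given.

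LAR-type phosphatases are cell surface receptors with immunoglobulin-like and fibronectin type III domains outside the cell and phosphatase domains inside it. They act in axon guidance and, as presynaptic adhesion molecules, in synapse formation, where they bind partners such as the Slitrk proteins, IL1RAPL1 and TrkC. Very short exons, called mini-exons, in the part of the gene coding for the immunoglobulin-like domains are spliced in or out and affect which partner is bound, and exons coding for fibronectin repeats are also alternative. NOVA1 and NOVA2, both made in neurons, bind RNA at the tetramer YCAY and control which alternative exons are kept, in which Y is C or T in the DNA letters used here.

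The first sequences shown come from the stretch that held NOVA2 clusters in all 3 genes. It is the intron that runs to an exon of 306 nt, the first of a block of alternative exons within the part coding for fibronectin repeats. Sequences were read from the mm9 genome, 5′ to 3′ on the transcribed strand, with YCAY in capitals.
Ptprd, chr4:75746789-75746990, NOVA2 387 tags and NOVA1 45 tags: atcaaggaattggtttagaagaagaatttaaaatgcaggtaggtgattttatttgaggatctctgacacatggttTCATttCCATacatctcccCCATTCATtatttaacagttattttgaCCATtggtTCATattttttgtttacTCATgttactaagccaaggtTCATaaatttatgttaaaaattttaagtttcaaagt
Ptprf, chr4:117907107-117907316, NOVA2 70 tags: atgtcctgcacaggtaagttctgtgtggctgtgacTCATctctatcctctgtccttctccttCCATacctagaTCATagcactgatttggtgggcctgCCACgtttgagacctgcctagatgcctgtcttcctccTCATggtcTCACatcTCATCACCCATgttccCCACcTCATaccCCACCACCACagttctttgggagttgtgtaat
Ptprs, chr17:56572111-56572391, NOVA2 608 tags and NOVA1 66 tags: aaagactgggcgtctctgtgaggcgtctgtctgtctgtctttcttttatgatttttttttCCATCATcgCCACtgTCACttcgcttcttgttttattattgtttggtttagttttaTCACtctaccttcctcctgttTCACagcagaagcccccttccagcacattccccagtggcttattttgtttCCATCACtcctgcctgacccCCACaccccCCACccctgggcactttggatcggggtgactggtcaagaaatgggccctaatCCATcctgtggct
Ptprs, chr17:56568618-56568768, NOVA2 123 tags: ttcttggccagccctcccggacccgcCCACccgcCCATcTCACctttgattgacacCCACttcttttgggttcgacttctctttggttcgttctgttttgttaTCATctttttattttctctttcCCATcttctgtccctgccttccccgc
These clusters held 8 YCAY (Ptprd), 14 (Ptprf), 11 and 6 (Ptprs). In Ptprf the motifs run together toward the 3′ end of the cluster, and in the 608-tag Ptprs cluster they fall in separate groups.

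The next sequences belong to the short alternative exons. The exons of 18 and 12 nt in Ptprd were taken as mini-exons of the immunoglobulin-like region from their length and place, since the annotation does not name them. The NOVA1 and NOVA2 clusters at the 18-nt exon covered the exon itself. The 33-nt exon of Ptprf and the 12-nt exon of Ptprs lie further 3′ in their genes.
Ptprd 18-nt exon, chr4:75784460-75784477: gtggtacaccaataagag
Ptprd cluster over it, chr4:75784249-75784524, NOVA2 170 tags: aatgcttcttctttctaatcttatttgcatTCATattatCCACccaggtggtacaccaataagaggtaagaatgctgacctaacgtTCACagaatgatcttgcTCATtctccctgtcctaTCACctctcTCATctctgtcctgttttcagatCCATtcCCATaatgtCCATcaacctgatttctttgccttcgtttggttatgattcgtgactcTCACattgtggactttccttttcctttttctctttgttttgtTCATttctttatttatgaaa
Ptprd 12-nt exon, chr4:75781449-75781460: agctgcgagaag
Ptprd cluster beside the 42-nt exon, chr4:75685613-75685673, NOVA1 15 tags: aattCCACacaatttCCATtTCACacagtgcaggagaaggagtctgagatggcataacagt
Ptprf 33-nt exon, chr4:117890617-117890649: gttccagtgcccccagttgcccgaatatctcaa
Ptprf highest cluster, chr4:117889835-117890005, NOVA2 143 tags and NOVA1 16 tags: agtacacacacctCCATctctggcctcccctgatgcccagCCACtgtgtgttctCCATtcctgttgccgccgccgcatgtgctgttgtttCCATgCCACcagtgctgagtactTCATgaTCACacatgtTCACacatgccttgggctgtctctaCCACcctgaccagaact
Ptprs 12-nt exon, chr17:56561256-56561267: caaacctgacag
None of the 4 exons shown holds a YCAY itself. The 3 clusters shown held 11 (over the 18-nt exon), 3 (beside the 42-nt exon of Ptprd, which is not shown) and 9 (Ptprf, 611 nt from the 33-nt exon).

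The last sequences show the extremes of the group. The Ptprd cluster had the most tags of all clusters in the 3 genes and lies deep in an intron, and the Ptprs cluster was the highest NOVA1 cluster of the group and lies in coding sequence. Both are longer than shown, and the 300 nt around the midpoint are given.
Ptprd, chr4:76596320-76596619, NOVA2 675 tags: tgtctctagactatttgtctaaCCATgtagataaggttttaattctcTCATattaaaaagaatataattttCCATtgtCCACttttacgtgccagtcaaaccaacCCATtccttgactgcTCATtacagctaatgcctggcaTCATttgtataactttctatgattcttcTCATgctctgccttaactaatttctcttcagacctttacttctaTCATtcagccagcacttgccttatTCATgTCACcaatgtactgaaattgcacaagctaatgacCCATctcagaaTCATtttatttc
Ptprs, chr17:56575169-56575468, NOVA1 167 tags: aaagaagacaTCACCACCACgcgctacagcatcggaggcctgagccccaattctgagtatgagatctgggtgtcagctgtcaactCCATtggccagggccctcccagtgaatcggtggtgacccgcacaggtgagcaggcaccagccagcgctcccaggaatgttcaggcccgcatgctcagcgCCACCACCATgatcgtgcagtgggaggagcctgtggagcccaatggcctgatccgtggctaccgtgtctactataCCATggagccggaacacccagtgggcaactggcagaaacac
The Ptprd stretch held 13 YCAY, most of them apart from each other, and the coding stretch of Ptprs held 8, of which several stand side by side.

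Ptprd held nearly all of the clusters. It had 78 NOVA1 clusters with 1537 tags and 507 NOVA2 clusters with 22344 tags, which is 83.0% and 97.1% of the clusters of the group. Ptprf had 3 NOVA1 clusters with 39 tags and 6 NOVA2 clusters with 264 tags. Ptprs had 13 NOVA1 clusters with 406 tags and 9 NOVA2 clusters with 915 tags. All 3 genes therefore had clusters of both proteins, whereas of 22238 protein-coding genes 12.8% had a NOVA1 cluster and 22.7% a NOVA2 cluster. Gene length bears on such counts, since a longer transcript offers more places for a cluster. Here and below, comparisons with protein-coding genes were not limited to those expressed in cortex, and no count was corrected for transcript abundance. NOVA2 exceeded NOVA1 by 5.55 times in clusters and 11.9 times in tags over the 3 genes, and by 3.66 and 4.30 times over the whole lists. These ratios were not scaled for sequencing depth, and the study reports more unique tags for NOVA2 than for NOVA1. Ptprs alone held more NOVA1 than NOVA2 clusters, which was the case in 8.06% of the 5250 protein-coding genes with a cluster of either protein.

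Among protein-coding genes, Ptprd had rank 1 by number of clusters in both lists and rank 3 by length. The next gene in the NOVA2 list, Nrxn3, which codes for the synaptic receptor neurexin 3, had 273 clusters and spans 1612 kb. Per 100 kb, Ptprd held 22.3 NOVA2 clusters and 3.44 NOVA1 clusters. Of 52 genes of at least 1000 kb, it had rank 3 for NOVA2, against a median of 3.74 per 100 kb, and rank 5 for NOVA1, against a median of 0.694. Its NOVA2 density was also above the median of 5.07 over all genes with a NOVA2 cluster, while its NOVA1 density was close to the median of 3.29 over all genes with a NOVA1 cluster.

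For the shorter members, 2428 protein-coding genes of 50 to 100 kb are the closest in span. Of these, 24.0% had a NOVA1 cluster and 47.9% a NOVA2 cluster, and where there was any the median was 2 and 3 clusters. In the NOVA1 list 7 of them held more clusters than Ptprs, and 120 held more than Ptprf. In the NOVA2 list 84 held more than Ptprs and 209 more than Ptprf. Ptprs was thus near the upper end of genes of its span for NOVA1, with 13 clusters against a maximum of 24.

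**Figure D1:**
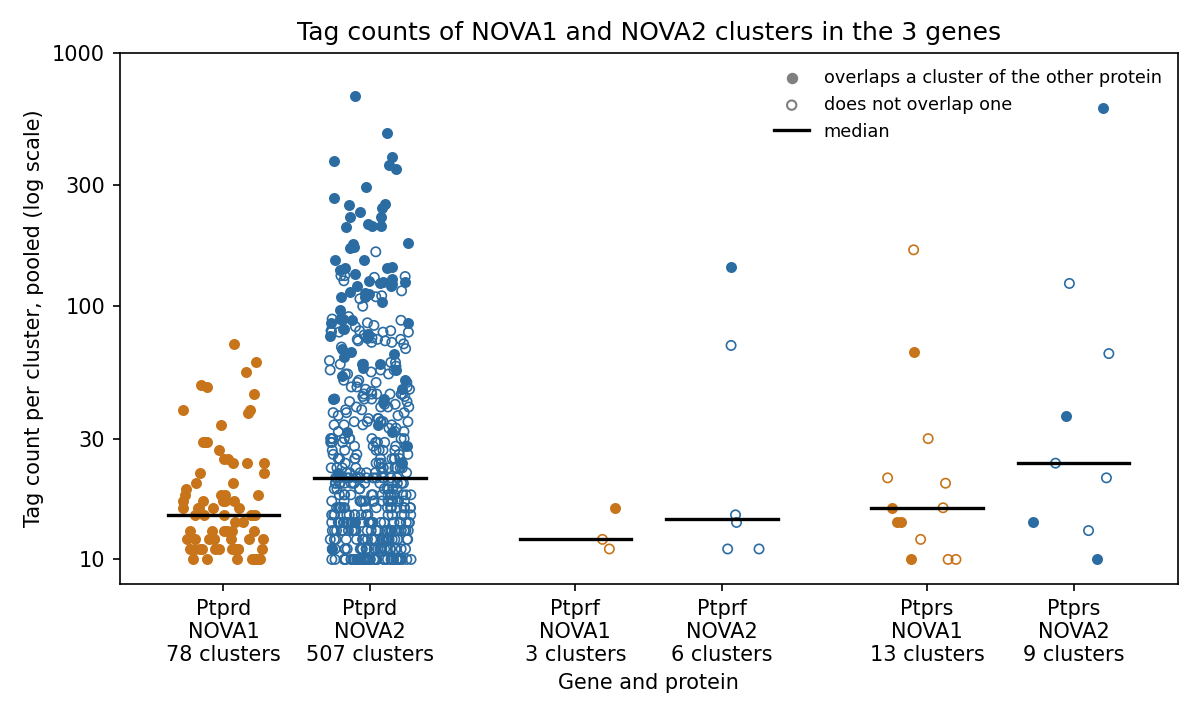
Tag count of every cluster in the 3 genes on a log scale, by gene and protein. Each point is 1 cluster, filled where it overlapped a cluster of the other protein, and the black lines are medians. All 78 NOVA1 clusters of Ptprd are filled, its NOVA2 clusters reach 675 tags, and the highest NOVA1 cluster of Ptprs, with 167 tags, is open.

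In Ptprd, every NOVA1 cluster lay on a NOVA2 cluster. The share was 78 of 78 (95% Wilson interval 95.3 to 100%), against 80.1% over the NOVA1 list. Among intron clusters alone it was 68 of 68 (94.7 to 100%), against 95.5% over the list. In the other direction 76 of 507 NOVA2 clusters (15.0%, 12.1 to 18.4) overlapped a NOVA1 cluster, against 22.1% over the NOVA2 list. This share moved with the tag threshold, to 33.6% for NOVA2 clusters of 25 or more tags and 8.52% with both lists at 20 or more, where the list had 44.4% and 18.3%. With NOVA2 at 25 or more tags, 75 of the 78 NOVA1 clusters still overlapped one. The intervals cover counting error only. NOVA2 clusters shared with NOVA1 had a median of 114 tags (range 11 to 675) and those without NOVA1 a median of 18 (range 10 to 164). Over the whole NOVA2 list these medians were 46 and 16. Of 54 NOVA2 clusters of Ptprd with 100 tags or more, 43 (79.6%) were shared, beside 88.2% over the whole list at that level. At 65 positions where 1 cluster of each protein overlapped, the NOVA1 count was the lower in each, and the median of log2(NOVA1 tags / NOVA2 tags) was -2.75 (range -4.06 to -0.22). Over all 6770 such positions of the lists the median was -1.34, and over intron positions it was -2.04. No scaling for sequencing depth was applied, and such a scaling would shift every position by one amount. The study reports more unique tags for NOVA2 than for NOVA1. Which protein had the higher count therefore depends on that scaling at positions where the counts were close. The Ptprd median would stay below those of the lists, since all would shift by the same amount.

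The Ptprd clusters were intronic and far from exons. Introns held 68 of 78 NOVA1 clusters (87.2%, interval 78 to 92.9) and 493 of 507 NOVA2 clusters (97.2%, 95.4 to 98.3), whereas 40.3% (NOVA1) and 74.6% (NOVA2) of the whole lists lay in introns. The nearest annotated exon was a median of 54032 nt away for intron clusters of NOVA1 and 46236 nt away for those of NOVA2. More than 10000 nt separated 62 of the 68 NOVA1 clusters and 421 of the 493 NOVA2 clusters from any exon. Introns make up most of the sequence of this gene, and no share was corrected for that.

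**Figure D2:**
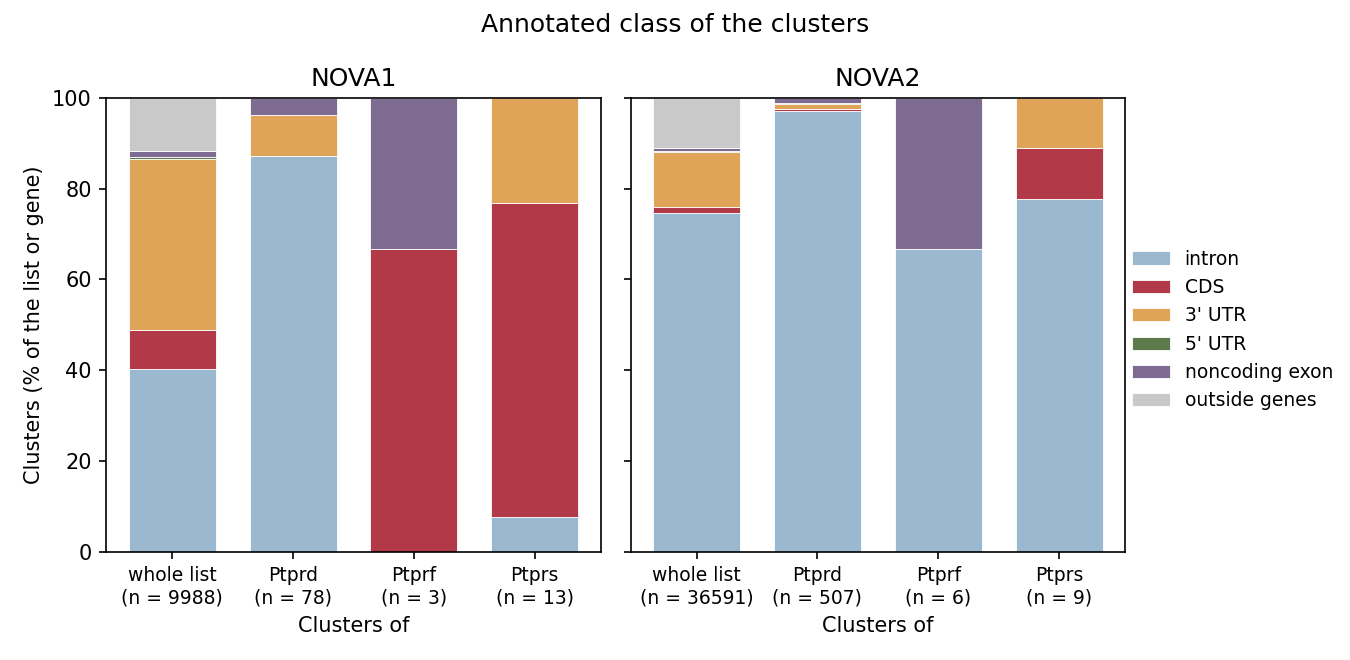
Share of clusters in each annotated class, in percent, for the whole lists and for each gene, with NOVA1 on the left and NOVA2 on the right. Clusters outside genes, which include those within 10 kb of a gene end, occur only in the whole lists by the choice of members. Introns hold 87.2% of the Ptprd and 7.69% of the Ptprs NOVA1 clusters, and coding sequence (CDS) holds 69.2% of the latter.

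The 5 highest NOVA2 clusters of Ptprd had 675, 485, 387, 376 and 362 tags. That with 675 tags (chr4:76596104-76596835) lay 30574 nt downstream of the nearest exon and covered 2 NOVA1 clusters, of 48 and 20 tags. That with 485 tags (chr4:77557080-77557455) lay 5972 nt downstream of an exon and overlapped the second highest NOVA1 cluster, of 60 tags. That with 362 tags (chr4:77430569-77430761) lay 132666 nt from an exon and overlapped a NOVA1 cluster of 49 tags. The remaining pair were the cluster of 387 tags before the 306-nt exon and a cluster of 376 tags in the 3′ UTR. The 5 highest NOVA1 clusters had 71, 60, 55, 49 and 48 tags. Those of 60, 55, 49 and 48 tags lay on 4 of these 5 NOVA2 clusters, and that of 71 tags lay on a NOVA2 cluster of 176 tags.

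Most Ptprd clusters lay in the long 5′ part of the gene, where all annotated exons are noncoding. The 1618 kb upstream of every protein-coding transcript held 397 NOVA2 and 51 NOVA1 clusters, or 24.5 and 3.15 per 100 kb. The next 269.0 kb, up to the first coding exon, held 56 and 14 clusters, or 20.8 and 5.20 per 100 kb. The 384.0 kb from there to the 3′ end, which hold the coding exons, had 54 and 13 clusters, or 14.1 and 3.39 per 100 kb. In bins of 50 kb NOVA2 had clusters in all 46 bins, with a median of 8.5 and a maximum of 37 in the bin that begins 100 kb from the 5′ end. NOVA1 had no cluster in 17 bins and at most 7, in the last bin, which holds the 3′ UTR.

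**Figure D3:**
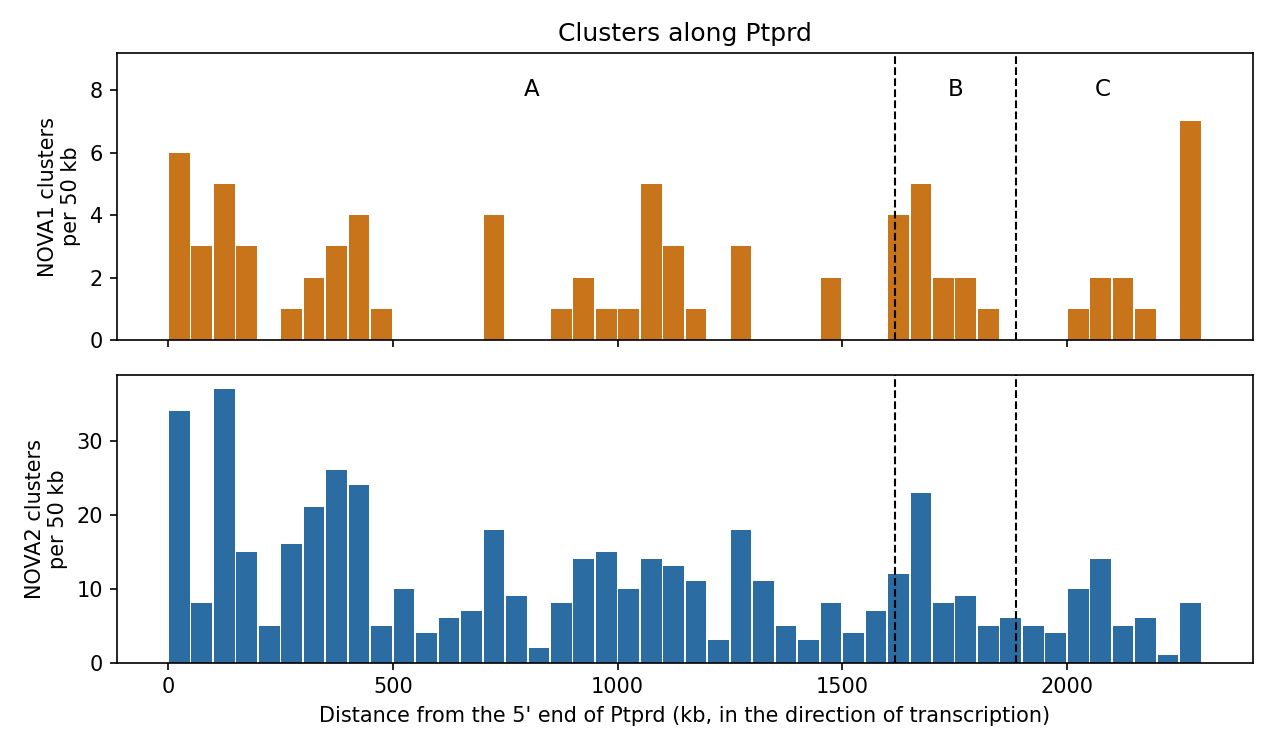
Number of clusters in bins of 50 kb along Ptprd, by distance from its 5′ end in kb, for NOVA1 (top) and NOVA2 (bottom, with another scale). Dashed lines bound the part 5′ of all coding transcripts (A), the part up to the first coding exon (B) and the part with the coding exons (C), and the last bin extends past the gene's end. Every NOVA2 bar is above 0, and 17 of 46 NOVA1 bins are empty.

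The 3′ UTR of Ptprd held 7 NOVA1 and 5 NOVA2 clusters, all of them shared. This is 8.97% of its NOVA1 and 0.986% of its NOVA2 clusters, beside 37.7% and 12.1% over the lists. The highest NOVA1 cluster of the gene, with 71 tags, lay there (chr4:75587938-75588110) on a NOVA2 cluster of 176 tags. The NOVA2 cluster of 376 tags (chr4:75589089-75589522) covered NOVA1 clusters of 55 and 39 tags. Coding sequence of Ptprd held 0 of 78 NOVA1 clusters (Wilson interval 0 to 4.69%) and 2 NOVA2 clusters, of 16 and 13 tags.

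Ptprs differed from Ptprd in class. Of its 13 NOVA1 clusters, 9 lay in coding sequence (69.2%, 42.4 to 87.3), 3 in the 3′ UTR and 1 in an intron, whereas coding sequence held 8.65% of NOVA1 clusters over the list. Of its 9 NOVA2 clusters, 7 lay in introns, 1 in the 3′ UTR and 1 in coding sequence, where 1.47% of NOVA2 clusters lay over the list. The same gene thus carried mostly exonic NOVA1 clusters and mostly intronic NOVA2 clusters. Of the coding NOVA1 clusters, 2 of 9 overlapped a NOVA2 cluster, beside 38.1% of all coding NOVA1 clusters. Of all 13 the share was 38.5% (17.7 to 64.5, counting error only), beside 78 of 78 in Ptprd. The 2 genes differ in class, and over the list 38.1% of coding and 95.5% of intron NOVA1 clusters overlapped. No difference between the genes was tested.

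The coding NOVA1 clusters of Ptprs had 167, 30, 21, 20, 16, 14, 14, 10 and 10 tags. The highest (chr17:56575069-56575568) lay whole inside the 582-nt exon that codes for fibronectin repeats, ranked 160 among all NOVA1 clusters and met no NOVA2 cluster. In 8 of the 9 at least 97.7% of the cluster lay within annotated exons, and in the other, at chr17:56573879-56574083, 69.3%. In 2 of the exons that correspond between the genes, both Ptprs and Ptprf had a NOVA1 cluster and neither had a NOVA2 cluster. These were the 582-nt exon, with 167 tags in Ptprs and 11 in Ptprf, and a 254-nt exon, with 30 tags and 12. Ptprd had no cluster of either protein on the counterparts of these exons.

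The NOVA2 clusters of Ptprs had 608, 123, 65, 37, 24, 21, 14, 13 and 10 tags. The cluster of 608 tags ranked 68 in the whole NOVA2 list and was the second highest of the group after the 675-tag cluster of Ptprd. The NOVA1 cluster of 66 tags overlapped it and was the only intron cluster of NOVA1 in the gene. Of the 3 positions of Ptprs with 1 cluster of each protein, this one had a log2 ratio of NOVA1 to NOVA2 tags of -3.20. A position in coding sequence had 14 NOVA1 and 10 NOVA2 tags (log2 ratio 0.49). In counts not scaled for depth, it was the only one of 69 in the group where NOVA1 had more tags.

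Ptprf had few clusters. Its NOVA1 clusters had 16, 12 and 11 tags, the first in a noncoding exon and the others in coding sequence. Its NOVA2 clusters had 143, 70, 15, 14, 11 and 11 tags, with 4 in introns and 2 in noncoding exons. Only the highest of each protein overlapped, at chr4:117889835-117890005, with 143 NOVA2 and 16 NOVA1 tags and a log2 ratio of -3.16. With 3 and 6 clusters, the shares of this gene have wide intervals, such as 6.15 to 79.2% for the 1 NOVA1 cluster of 3 that was shared.

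To place the clusters against alternative exons, a cassette exon was defined as an internal exon of one transcript that lies whole inside an intron of another transcript of the gene. By this rule Ptprd has 18 cassette exons, Ptprf 4 and Ptprs 13. Some are overlapping forms of one exon, and 4 of the Ptprd exons lack the AG before and GT after that nearly all exons have. In Ptprs many are included in 6 of 7 transcripts, because 1 annotated transcript skips a long stretch. A cluster was called near a cassette exon if it lay on it or within 500 nt. Near clusters made up 8 of 94 NOVA1 clusters of the group (8.51%, 4.38 to 15.9) and 17 of 522 NOVA2 clusters (3.26%, 2.04 to 5.15), beside 2.62% and 2.27% over the lists. The NOVA2 share was near that of the list. Ptprd held 4 of the 8 and 14 of the 17, with 5 of the NOVA2 clusters upstream of the exon, 5 on it and 4 downstream. In Ptprd alone the NOVA1 share was 5.13% (2.01 to 12.5). Ptprs held the other 4 NOVA1 clusters, and 3 of them lay on exons that 6 of 7 transcripts include.

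The exons of Ptprd taken as mini-exons had NOVA clusters at the 18-nt exon above all. This exon (chr4:75784460-75784477) is included in 5 of 10 annotated transcripts and was overlapped by a NOVA2 cluster of 170 tags and a NOVA1 cluster of 29 tags (chr4:75784309-75784490). A second NOVA2 cluster, of 14 tags, began 217 nt downstream. The 9-nt exon before it (chr4:75785198-75785206, in 7 of 10 transcripts) had no cluster of either protein within 500 nt. The 12-nt exon (chr4:75781449-75781460, in 6 of 10 transcripts) was overlapped by a NOVA2 cluster of 19 tags and had no NOVA1 cluster. Between these exons, exons of 19 and 11 nt occur in 1 of 10 transcripts each. NOVA2 clusters of 71 and 20 tags lay near both and one of 38 tags near the 11-nt exon, and the 19-nt exon is one of those without AG and GT.

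In Ptprf and Ptprs the chosen transcripts have no counterparts of these mini-exons. The same stretches were compared through the exons on either side. Between the 189-nt and 111-nt exons, which flank the 9-nt and 18-nt exons of Ptprd, Ptprf had 2 NOVA2 clusters of 11 tags each and Ptprs had none. Between the 111-nt and 270-nt exons, which flank the 12-nt exon, Ptprd had 6 NOVA2 clusters with 265 tags, Ptprs had 4 with 123 tags and Ptprf had none. NOVA2 clusters thus lay in this stretch in 2 of the 3 genes, and NOVA1 clusters in none of them.

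The 3 genes have the same exon structure over most of their coding sequence. The longest coding transcripts with regular splice sites had 35 (Ptprd), 31 (Ptprf) and 32 (Ptprs) coding exons, and 30 exons corresponded in all of them by sequence. The 29 stretches between neighbouring corresponding exons were compared. NOVA2 clusters lay in 11 of them in Ptprd, in 4 in Ptprf and in 3 in Ptprs. They lay in 1 stretch in all 3 genes, in 4 stretches in 2 genes, in 7 in 1 gene and in 17 in none. NOVA1 clusters lay in 4, 1 and 1 stretches, and no stretch had them in all 3 genes. This comparison was chosen after the positions had been seen and carries no test.

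**Figure D4:**
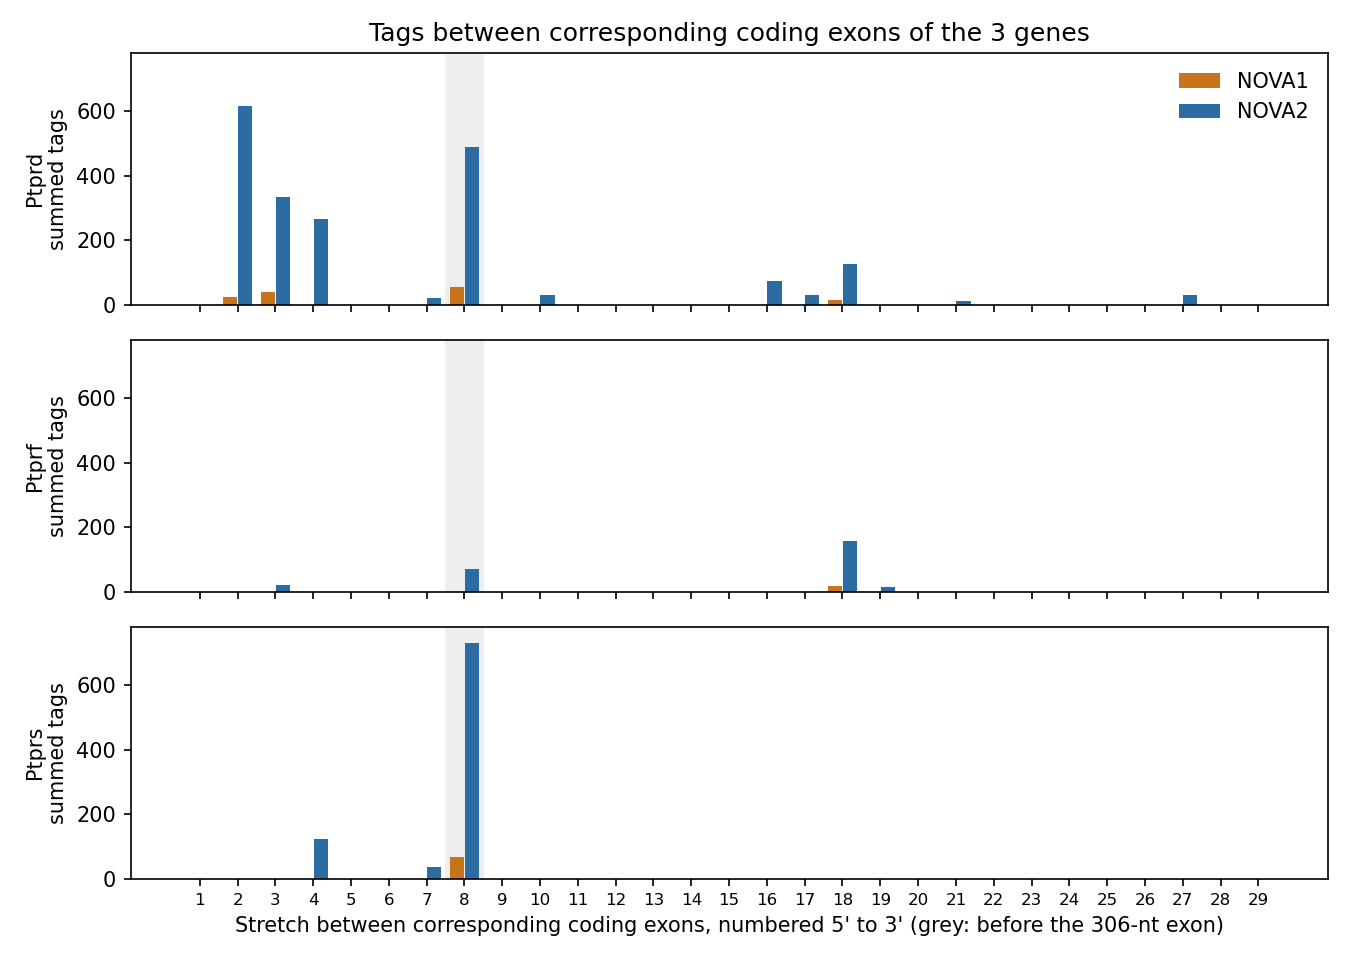
Sum of tags of the clusters in each of 29 stretches between corresponding coding exons, 5′ to 3′, for Ptprd, Ptprf and Ptprs, with NOVA1 in orange and NOVA2 in blue. The grey band marks stretch 8, before the 306-nt exon, where the NOVA2 sums are 489, 70 and 731 tags. Stretch 2 of Ptprd spans 102942 nt, far more than in the other genes.

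The stretch with NOVA2 clusters in each gene runs from a 145-nt exon to the 306-nt exon. It is 2202 nt long in Ptprd, 3167 nt in Ptprf and 5295 nt in Ptprs. In Ptprd, NOVA2 clusters of 387, 65 and 37 tags ended 132 nt upstream of the exon, reached into it and ended 620 nt upstream. NOVA1 clusters of 45 and 11 tags overlapped the first and second of these. In Ptprs, a NOVA2 cluster of 123 tags ended 37 nt upstream of the exon, and the cluster of 608 tags, with its NOVA1 cluster of 66 tags, ended 3530 nt upstream. In Ptprf the NOVA2 cluster of 70 tags lay at the other end of the intron, 247 nt after the 145-nt exon and 2710 nt before the 306-nt exon, with no NOVA1 cluster. Ptprd and Ptprs thus shared a NOVA2 cluster next to the 306-nt exon and Ptprf did not. This stretch held the largest NOVA2 tag sum in Ptprs and the second largest of the 29 in Ptprd and Ptprf. The exact 306-nt form is included in 2 of 13 transcripts of Ptprd, 1 of 3 of Ptprf and 1 of 7 of Ptprs that span it. Overlapping forms of other length add to these. They measure 307 nt (in 2 transcripts) and 184 nt (in 1) in Ptprd, and 59 nt (in 2) and 115 nt (in 1) in Ptprs. The sequence of the 306-nt exon was 65.8% identical between Ptprd and Ptprf and 61.5% between Ptprd and Ptprs. The alternative exons that follow it, of 194, 118 and 588 nt in Ptprd and of 194, 118 and 600 nt in Ptprs, had no cluster of either protein within 500 nt.

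**Figure D5:**
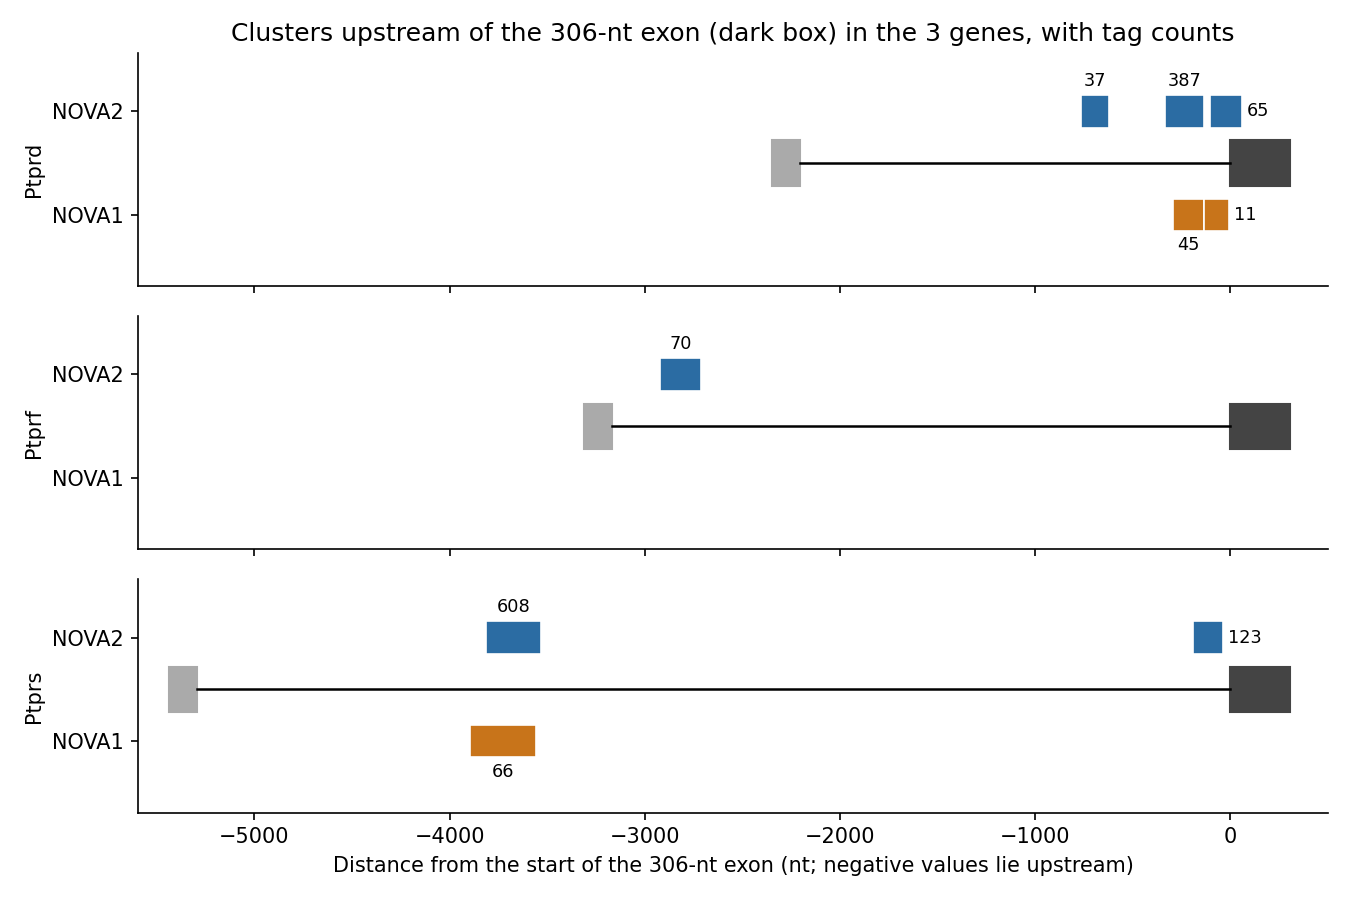
Clusters in the intron before the 306-nt exon of each gene, by distance in nt from the start of that exon (dark box), with the 145-nt exon as the light box and tag counts beside the clusters. NOVA2 clusters are drawn above and NOVA1 clusters below each intron. NOVA2 clusters of 387 and 65 tags in Ptprd and of 123 tags in Ptprs lie beside the exon, and that of 70 tags in Ptprf lies at the far end.

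A second stretch had clusters of both proteins in Ptprd and Ptprf. It lies before a 98-nt exon and holds a cassette exon of 42 nt in Ptprd (chr4:75685784-75685825) and of 33 nt in Ptprf. In Ptprd, NOVA2 clusters of 51, 41, 21 and 12 tags lay 106 nt downstream, 157 nt upstream, 428 nt upstream and on the 42-nt exon, and a NOVA1 cluster of 15 tags lay at the downstream position. In Ptprf, the NOVA2 cluster of 143 tags began 611 nt downstream of the 33-nt exon and ended 40 nt before the 98-nt exon, with a NOVA1 cluster of 16 tags. A further NOVA2 cluster, of 14 tags, lay 312 nt downstream of the 33-nt exon. Ptprs had no cluster in the corresponding stretch. In both genes with clusters, the position bound by both proteins lay between the short exon and the exon that follows it.

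Other alternative exons had weaker or no clusters nearby. The 27-nt exon of Ptprd (chr4:75741424-75741450) had a NOVA2 cluster of 29 tags 411 nt upstream, and the 27-nt exon of Ptprf (chr4:117900424-117900450) had none. A 42-nt noncoding exon in the 5′ part of Ptprd (chr4:77016004-77016045) had a NOVA2 cluster of 10 tags 60 nt downstream. The 12-nt exon of Ptprs (chr17:56561256-56561267) had a NOVA1 cluster of 16 tags 282 nt upstream, on the 158-nt exon before it, and the 12-nt exon of Ptprd at chr4:75700493-75700504 had none. Around the exons of 134 and 145 nt of Ptprs, which 6 of 7 transcripts contain, a NOVA2 cluster of 37 tags overlapped a NOVA1 cluster of 14 tags.

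Over the group, YCAY was more frequent inside the clusters than in the flanks 200 to 500 nt away. Clusters of the group held 36.9 YCAY per 1000 positions for NOVA1 and 37.2 for NOVA2, 1.88 and 1.97 times the flanks, beside 2.02 and 2.29 over the lists. By gene, the NOVA2 fold was 1.97 (95% interval from counts, 1.88 to 2.06) in Ptprd, 2.89 (2.09 to 4.0) in Ptprf and 1.76 (1.28 to 2.44) in Ptprs. The NOVA1 fold was 2.06 (1.84 to 2.31) in Ptprd, 1.14 (0.596 to 2.17) in Ptprf and 1.34 (0.999 to 1.80) in Ptprs, where 9 of 13 clusters are coding, and the last 2 intervals include 1. The coding NOVA1 clusters of the group held 1.23 times the flanks (0.901 to 1.69), beside 1.69 (1.63 to 1.75) over all coding NOVA1 clusters. The Ptprd NOVA2 folds for shared clusters, 1.86, and unshared clusters, 1.99, had overlapping intervals. All 522 NOVA2 clusters and 93 of 94 NOVA1 clusters held at least 1 YCAY, as did 99.3% and 98.1% of the lists.

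The genes that code for partners of the LAR-type phosphatases were also counted. Of 17 extracellular ligands and partners, 9 (52.9%) had a NOVA1 and 11 (64.7%) a NOVA2 cluster, beside 12.8% and 22.7% of all protein-coding genes. The most were in Lrfn5, a synaptic adhesion protein, with 35 and 110, and Il1rapl1, a postsynaptic receptor that binds PTPδ, the product of Ptprd, with 22 and 111. Ntrk3, which codes for TrkC, had 9 and 36. Slitrk1 and Slitrk2 had 1 NOVA1 cluster each and 1 and 2 NOVA2 clusters, and Slitrk3 to Slitrk6 had none. Of 11 intracellular partners, 5 (45.5%) and 7 (63.6%) had clusters. The liprin gene Ppfia2 had the most of both proteins, 20 and 89. Cask followed for NOVA2, with 4 and 33, and Enah for NOVA1, with 6 and 13. Of 13 other receptor-type tyrosine phosphatases, 8 (61.5%) and 11 (84.6%) had clusters, and the highest NOVA2 count, 62 in Ptprk, was below the 507 of Ptprd. Gene spans in these lists range from 3.88 kb (Lrfn4) to 1375 kb (Il1rapl1), the genes with the most clusters are among the longer ones, and the shares were not compared with genes of like span. Of these 41 genes, 29 had a cluster of either protein, and 5 held more NOVA1 than NOVA2 clusters. These were Sdc3 (10 against 4), Ncan (9 against 1), Lrrc4b (6 against 4), Agrn (4 against 2) and Ctnnb1 (4 against 2).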

How the data were processed

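HITS-CLIP was performed for NOVA1 and NOVA2, with 3 libraries each. The authors aligned tags to mm9 with Novoalign (version not given in the sources used here), removed PCR duplicates and grouped tags into clusters. The 2 deposited lists give a tag count per cluster, pooled by the authors over libraries and not scaled to library size, for clusters with at least 10 tags found in 2 or more libraries. The study's term for the thresholded measure is peak height, the files do not say whether the count is a total or a maximum depth, and the lists do not give library depth.

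Here clusters were assigned to the GENCODE vM1 gene span of a member on the same strand. A second, nested Ptprd gene model was counted as part of Ptprd. Clusters took the class covering most of their nucleotides, in the order coding sequence, 3′ UTR, 5′ UTR, noncoding exon, intron, with retained-intron transcripts left out. Cassette exons were internal exons inside an intron of another transcript, with a window of 500 nt. YCAY was counted on the transcribed strand with overlapping matches, against flanks 200 to 500 nt away. Coding exons of the longest coding transcripts with regular splice sites were aligned between the genes. Shares carry Wilson 95% intervals, and YCAY folds carry intervals from the counts. Named clusters were the 5 highest per gene and list, those near a cassette exon and the highest exonic ones. The members and lists were chosen with earlier results of these data known. The functions were tested on simulated data, where 12 of 12 known answers were recovered. Python 3.11.15, pandas 2.3.3, pysam 0.24.0 and Biopython 1.88 were used.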

Additional observations from a re-analysis of the deposited data

How the results depend on the processing

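The alternatives that leave out Ptprd and those limited to cassette exons with AG before and GT after were chosen after seeing the data. Of 50 alternative values for 11 results, 34 lay inside the interval given in the text (for counts, within 1.5 times) and 16 lay outside it, and none changed direction. No paired analysis was possible because each cluster has 1 count over all libraries of its protein, so leaving out a library was not possible either. A fixed tag threshold admits weaker sites in the protein with more tags.

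At 20 or more tags the 3 genes held 28 NOVA1 and 278 NOVA2 clusters, and NOVA2 at 25 or more tags left 220, in each case from fewer clusters by construction. The share of NOVA2 clusters that overlapped NOVA1 was 8.63% with both lists at 20 or more tags and 34.1% with NOVA2 alone at 25 or more. Exons of coding transcripts alone put 98.1% of NOVA2 clusters in introns. Intron clusters alone gave a YCAY fold of 2.15 for NOVA1, beside 2.81 over all intron clusters of the NOVA1 list. Without Ptprd, which leaves 16 NOVA1 and 15 NOVA2 clusters, the overlap shares were 37.5% (NOVA1) and 33.3% (NOVA2), the intron shares 6.25% and 73.3%, the shares near a cassette exon 25% and 20%, the YCAY folds 1.29 and 2.22, and the median of log2(NOVA1 tags / NOVA2 tags) -2.28. The overlap shares of both proteins then lay on the other side of the list values, 80.1% for NOVA1 and 22.1% for NOVA2. So did the intron shares, beside 40.3% and 74.6% over the lists, with that of NOVA2 close to its list value. The values over the 3 genes are thus mostly those of Ptprd.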

Other observations

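No cluster of either protein lay within 10 kb beyond the annotated ends of the 3 genes, and none lay on the opposite strand within their spans.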
